A study of Homo sapiens with 6 samples.

Results

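The genes described here serve the synthesis, uptake and transport of cholesterol and the synthesis of fatty acids, most of them under the sterol regulatory element-binding proteins (SREBPs). They were chosen by symbol as 36 genes in 5 groups: the mevalonate arm of sterol synthesis, the squalene and sterol arm, lipoprotein uptake and sterol transport, the SREBP factors with their regulators, and fatty acid synthesis with elongation and desaturation. Of the 36 genes, 35 were matched by Ensembl identifier among the 20308 genes of the tables, and ACACA was not analysed here. The list does not cover every gene of the pathway, and it was chosen with earlier results of these data known.

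Cells make cholesterol from acetyl-CoA, first through mevalonate to farnesyl diphosphate and then through squalene and a chain of sterol intermediates. The SREBPs are transcription factors held in the endoplasmic reticulum membrane by SCAP and the INSIG proteins. When membrane sterol falls, SCAP escorts them to the Golgi, where proteases free the part that enters the nucleus and switches on sterol genes, led by the product of SREBF2, and fatty acid genes, led by the product of SREBF1. Prostate cancer cells are known for active lipid synthesis, which androgen signalling feeds in part through SREBPs.

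RNA was sequenced from LNCaP-AI, an androgen-independent derivative of the LNCaP prostate cancer line that models castration-resistant disease. In 3 libraries METTL1 was stably silenced by a lentiviral short hairpin (shMETTL1), and 3 control libraries carried a scrambled hairpin (shscramble). METTL1 is the catalytic subunit of an RNA methyltransferase that places N7-methylguanosine. All 6 libraries came from cells under androgen deprivation, and the labels do not say whether a line was 1 clone or a pool, or whether the 3 libraries of a group were separate cultures. The study's methods speak of biological replicates for its data in general and do not name these libraries. P-values therefore measure the spread between libraries, which may be technical. In RNA from bulk cultures, fewer cells of a kind and less RNA per cell cannot be told apart.

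The groups were compared by 2 tests side by side, limma on log2(FPKM + 0.5), where FPKM is the fragment density per length of transcript scaled to the library, and the quasi-likelihood test of edgeR on the estimated counts. P-values were adjusted over all genes tested, and a gene was called, and is said to have risen or fallen, at an adjusted p under 0.05.

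METTL1 (ENSG00000037897) had 8.35, 10.5 and 8.18 FPKM in shMETTL1 replicates 1, 2 and 3, against 13.9, 18.5 and 21.0 FPKM in shscramble replicates 1, 2 and 3. Every shMETTL1 library lay below every shscramble library. METTL1 fell by edgeR (log2 fold change -1.36, SE 0.37, adjusted p = 0.0368), whereas limma on FPKM did not call it (log2 fold change -0.93, SE 0.22, adjusted p = 0.127). The totals of the estimated counts were 3389897 to 3604835 per library, and 13196 to 13655 genes were above 0. All 8 luminal prostate markers were measured, with summed levels of 1866 to 2110 FPKM in shMETTL1 and 2275 to 2326 FPKM in shscramble. Among leukocyte markers, CD68 had 6.0 to 8.1 FPKM in shMETTL1 and 11.8 to 16.8 FPKM in shscramble, and PTPRC, CD3E and LYZ were at 0 in all 6 libraries. The sums were 5.31 to 11.2 FPKM in shMETTL1 and 7.94 to 13.7 FPKM in shscramble for fibroblast markers, nearly all from COL1A1 with DCN and LUM at 0, and 0 to 1.60 FPKM against 0.885 to 4.72 FPKM for basal markers, with KRT5 at 0. Endothelial markers stayed at or below 0.219 FPKM in each of the 6 libraries, with CDH5 and KDR at 0. The part of these marker levels in the results was not tested. Of the controls, shscramble replicate 2 was the nearest to the shMETTL1 libraries. Over log2 FPKM of all genes tested its Pearson correlation with them was 0.946 to 0.953. With shscramble replicates 1 and 3 it was 0.936 and 0.945, and those 2 controls correlated with each other at 0.946. Shscramble replicate 1 was the farthest from the shMETTL1 libraries, at 0.925 to 0.932. Which control was unusual was not tested. Among the 34 members tested, shscramble replicate 2 held the highest of the 3 shscramble levels in 21, and shscramble replicate 1 held the lowest in most. The share of all genes with either order was not computed. Results that rest on shscramble replicate 2 are given with and without it.

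Of the members that rose in shMETTL1 cells, 7 of 8 encode enzymes of sterol synthesis, and none belongs to fatty acid synthesis. Of the 34 members tested, 18 are sterol synthesis genes and 8 are fatty acid genes. The make-up of the list thus weights these counts toward sterol synthesis. By edgeR on the estimated counts, 8 of the 34 tested members rose and 0 fell, against a background of 2.68% of 11248 genes that rose and 3.65% that fell. Because the list was chosen with earlier results of these data known, the comparisons with all genes are descriptions and not tests. The 8 were HMGCS1, SQLE, LSS, TM7SF2, MSMO1, SC5D and DHCR7 of sterol synthesis and the lipoprotein receptor gene VLDLR. By limma on log2(FPKM + 0.5), 0 members passed an adjusted p of 0.05, as did only 0.123% of 12156 genes. Before adjustment, limma gave p under 0.05 for 10 members that were higher and 3 that were lower in shMETTL1, against 7.37% and 6.8% of all genes, and edgeR did so for 13 and 3, against 10.7% and 12.1%. The FPKM values of the groups did not overlap for 11 members that were higher in shMETTL1 and 3 that were lower, against 10.5% and 9.33% of all genes. The median log2 fold change by limma was 0.20 over the 34 members and 0.02 over all genes tested. The heat map of the members and the plot of their fold changes show the 5 groups side by side.

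**Figure D1:**
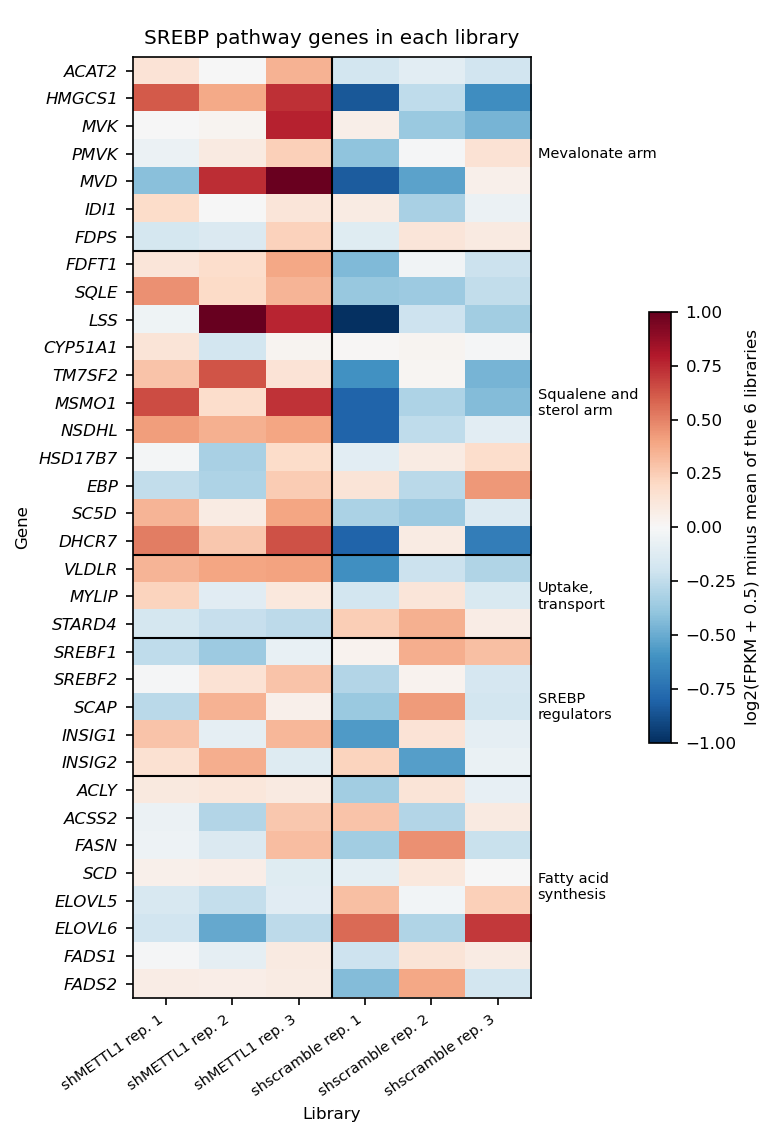
Level of each of the 34 tested genes (rows, by group) in the 3 shMETTL1 and 3 shscramble libraries (columns), as log2(FPKM + 0.5) minus the mean of the 6 libraries, with red above and blue below that mean. HMGCS1, SQLE, MSMO1, NSDHL, SC5D and DHCR7 are redder in the shMETTL1 columns, shscramble replicate 1 is the bluest column of the sterol arms, and the fatty acid block has no such split.

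**Figure D2:**
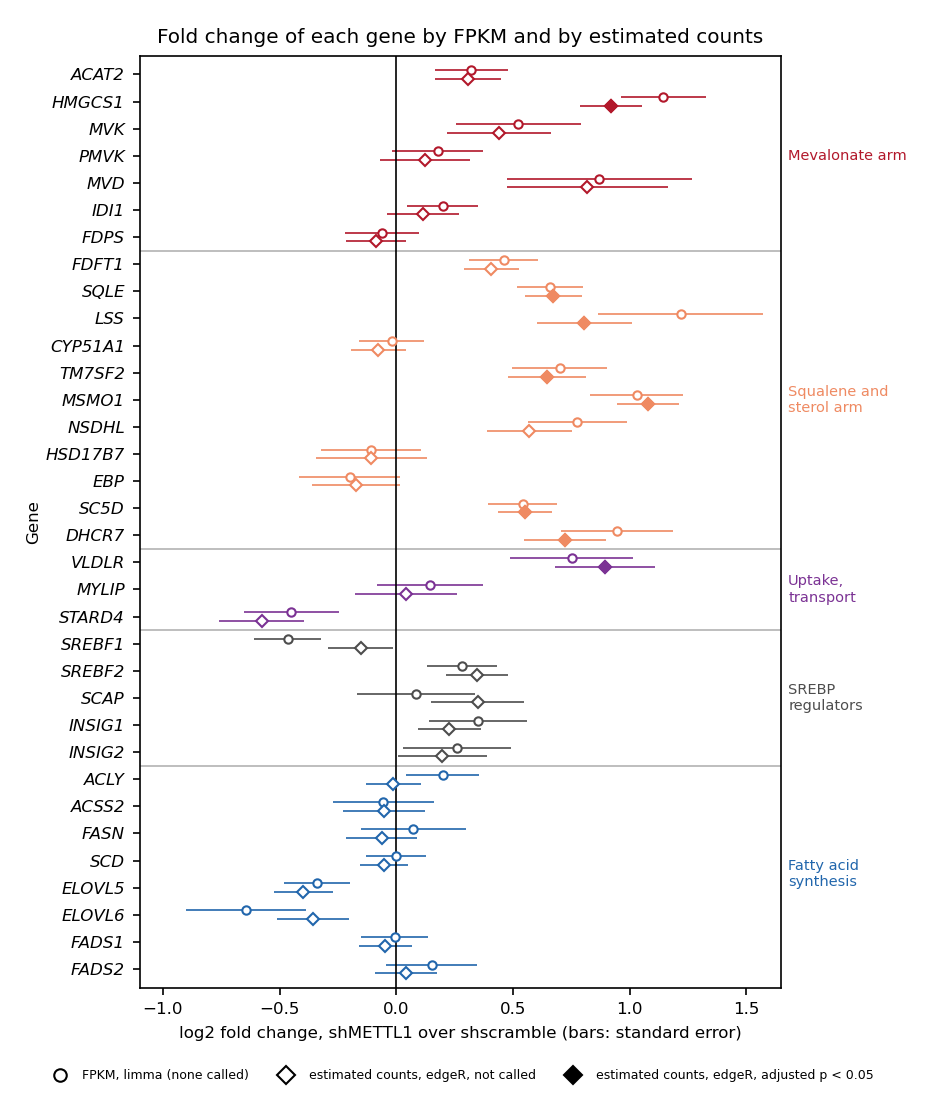
Log2 fold change of shMETTL1 over shscramble for each of the 34 tested genes, from FPKM with limma (circles) and from estimated counts with edgeR (diamonds, filled where the adjusted p was under 0.05), with standard errors as bars and colours for the 5 groups. The 8 filled diamonds lie between 0.55 and 1.08, and 7 of them are genes of sterol synthesis, as are 18 of the 34 genes shown.

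In the mevalonate arm, 6 of 7 genes had a log2 fold change above 0 by limma, against 6376 of 12156 genes tested. The median of the arm was 0.32, against 0.02 over all genes tested. HMGCS1 alone rose by edgeR, against 2.68% of all genes. HMGCS1 (ENSG00000112972) encodes the cytosolic synthase that joins acetoacetyl-CoA with acetyl-CoA to form HMG-CoA. It had 95.9, 81.5 and 104 FPKM in shMETTL1 replicates 1, 2 and 3, against 34.6, 52.6 and 40.5 FPKM in shscramble replicates 1, 2 and 3. The lowest shMETTL1 library stood well above the highest shscramble library. HMGCS1 rose to 1.89 times its shscramble level by edgeR (log2 fold change 0.92, SE 0.13, adjusted p = 0.000668). By limma it missed the threshold (log2 fold change 1.15, SE 0.18, adjusted p = 0.0598), and without shscramble replicate 2 it passed (log2 fold change 1.31, adjusted p = 0.0246). Its promoter is shown because the gene carried the smallest limma p of the list. The 200 bases before 1 annotated start, printed here, hold 2 inverted CCAAT boxes, in capitals, and those before a second start hold none:
HMGCS1, chr5:43313413-43313612 (GRCh38.p14, minus strand): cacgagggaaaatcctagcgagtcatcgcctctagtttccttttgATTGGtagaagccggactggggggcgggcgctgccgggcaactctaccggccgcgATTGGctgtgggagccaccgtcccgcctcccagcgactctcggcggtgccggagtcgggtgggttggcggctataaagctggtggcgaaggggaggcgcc

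The remaining mevalonate genes were not called by either test. ACAT2, which makes acetoacetyl-CoA, had 35.1 ± 4.46 FPKM in shMETTL1 and 27.9 ± 0.912 FPKM in shscramble (SD, n = 3 each, as for all means given here), and its groups did not overlap (log2 fold change 0.32 by limma and 0.31 by edgeR). MVD, the decarboxylase that yields isopentenyl diphosphate, had the second largest fold change of the arm (0.87 by limma and 0.82 by edgeR) but also a wide spread, with 8.75 ± 4.06 FPKM in shMETTL1 and 4.32 ± 1.55 FPKM in shscramble. MVK, the mevalonate kinase, averaged 13.7 ± 4.60 FPKM in shMETTL1 and 9.16 ± 1.94 FPKM in shscramble, and its highest value was in shMETTL1 replicate 3. The kinase gene PMVK averaged 21.2 ± 2.23 FPKM in shMETTL1 and 18.8 ± 3.60 FPKM in shscramble, and the isomerase gene IDI1 averaged 69.6 ± 4.61 FPKM in shMETTL1 and 60.9 ± 8.49 FPKM in shscramble, with overlapping groups for both. FDPS, which encodes farnesyl diphosphate synthase, was the 1 gene of the arm below 0 (-0.061 by limma and -0.085 by edgeR), with 82.6 ± 13.4 FPKM in shMETTL1 and 85.7 ± 7.48 FPKM in shscramble.

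The squalene and sterol arm held most of the genes that rose. Of its 11 genes, 8 had a log2 fold change above 0 by limma, against 6376 of 12156 genes tested. The groups of all 8 of these did not overlap by FPKM, against 10.5% of all genes that were higher without overlap. By edgeR 6 rose, against 2.68% of all genes. The median log2 fold change was 0.66 by limma and 0.57 by edgeR, against 0.02 and -0.0001 over all genes tested. The 3 genes below 0 were CYP51A1, HSD17B7 and EBP.

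MSMO1 (ENSG00000052802), a monooxygenase that acts after CYP51A1 in removing methyl groups from the sterol ring, had 84.7, 60.6 and 88.7 FPKM in shMETTL1 replicates 1, 2 and 3, against 30.6, 43.2 and 39.6 FPKM in shscramble replicates 1, 2 and 3. Its 6 libraries separated cleanly by group. MSMO1 rose by edgeR to 2.11 times the shscramble level (log2 fold change 1.08, SE 0.13, adjusted p = 0.000197 by edgeR), the largest edgeR fold change of the members, and was not called by limma (log2 fold change 1.03, SE 0.20, adjusted p = 0.0824). NSDHL, a dehydrogenase of the demethylation that MSMO1 begins, had 23.1, 22.1 and 22.7 FPKM in the shMETTL1 libraries, against 9.63, 14.3 and 15.9 FPKM in the shscramble libraries. The 3 shMETTL1 values of NSDHL lay close together and above all controls. With all libraries neither test called NSDHL (log2 fold change 0.57, SE 0.18, adjusted p = 0.0724 by edgeR, and adjusted p = 0.177 by limma). Without shscramble replicate 2, NSDHL rose by edgeR (log2 fold change 0.64, adjusted p = 0.0306) but was not called by limma (log2 fold change 0.84). HSD17B7, the reductase that completes this demethylation, averaged 10.3 ± 1.89 FPKM in shMETTL1 and 11.0 ± 1.14 FPKM in shscramble, and its groups overlapped. The MSMO1 promoter is shown as the window with the most CCAAT boxes of those printed here, 4 in 200 bases, in capitals in either orientation:
MSMO1, chr4:165327469-165327668 (GRCh38.p14, plus strand): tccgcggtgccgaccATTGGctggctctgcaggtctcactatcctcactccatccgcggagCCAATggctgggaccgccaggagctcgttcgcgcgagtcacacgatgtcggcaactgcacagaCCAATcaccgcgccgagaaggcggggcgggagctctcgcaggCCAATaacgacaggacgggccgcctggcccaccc

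At the entry to the arm, FDFT1, or squalene synthase, had 224, 233 and 269 FPKM in the shMETTL1 libraries, against 151, 201 and 177 FPKM in the shscramble libraries. The groups did not overlap, and the shscramble library nearest to shMETTL1 was replicate 2. FDFT1 narrowly missed the edgeR threshold (log2 fold change 0.41, SE 0.12, adjusted p = 0.0512) and was called by DESeq2 (adjusted p = 0.0185) and by edgeR without shscramble replicate 2 (log2 fold change 0.47, adjusted p = 0.00561). Limma did not call FDFT1 with all libraries (adjusted p = 0.232) or without shscramble replicate 2 (adjusted p = 0.0746). SQLE (ENSG00000104549), the epoxidase that oxygenates squalene, had 70.3, 58.4 and 64.6 FPKM in the shMETTL1 libraries, against 39.1, 39.6 and 42.9 FPKM in the shscramble libraries. Controls agreed closely for SQLE, and the gene rose to 1.60 times the shscramble level (log2 fold change 0.67, SE 0.12, adjusted p = 0.00356 by edgeR; adjusted p = 0.109 by limma).

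LSS (ENSG00000160285), which folds the squalene epoxide into lanosterol, had 14.9, 33.9 and 26.5 FPKM in the shMETTL1 libraries, against 6.10, 13.3 and 12.0 FPKM in the shscramble libraries. The gap between the groups was narrow, because shMETTL1 replicate 1 lay just above shscramble replicate 2. LSS rose by edgeR (log2 fold change 0.81, SE 0.21, adjusted p = 0.0283), with a larger fold change on the FPKM scale (log2 fold change 1.22, SE 0.35, adjusted p = 0.186 by limma). TM7SF2 (ENSG00000149809), a sterol reductase, had 60.4, 76.6 and 54.4 FPKM in the shMETTL1 libraries, against 32.3, 50.1 and 35.6 FPKM in the shscramble libraries. Here too the lowest shMETTL1 value was close to shscramble replicate 2. TM7SF2 rose by edgeR (log2 fold change 0.64, SE 0.17, adjusted p = 0.0309; adjusted p = 0.187 by limma).

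The last steps of the arm are run by EBP, SC5D and DHCR7. SC5D (ENSG00000109929), the sterol desaturase, had 84.6, 70.7 and 88.1 FPKM in the shMETTL1 libraries, against 53.6, 52.0 and 60.7 FPKM in the shscramble libraries, with no overlap. SC5D rose to 1.47 times the shscramble level (log2 fold change 0.55, SE 0.12, adjusted p = 0.0101 by edgeR; adjusted p = 0.177 by limma). DHCR7 (ENSG00000172893), the reductase that yields cholesterol in one branch, had 48.3, 40.6 and 52.5 FPKM in the shMETTL1 libraries, against 19.1, 35.6 and 20.6 FPKM in the shscramble libraries. In DHCR7 the shscramble replicate 2 value stood nearer to the shMETTL1 libraries than to the other 2 controls. DHCR7 rose by edgeR (log2 fold change 0.72, SE 0.18, adjusted p = 0.0221) and passed limma only without shscramble replicate 2 (log2 fold change 1.22, adjusted p = 0.0307, against 0.151 with all libraries). EBP, the isomerase that acts before SC5D, averaged 76.8 ± 17.5 FPKM in shMETTL1 and 88.5 ± 21.1 FPKM in shscramble and was not called. CYP51A1, the lanosterol demethylase and a known SREBP target, averaged 67.9 ± 7.34 FPKM in shMETTL1 and 68.5 ± 1.10 FPKM in shscramble, a log2 fold change of -0.019 by limma and -0.077 by edgeR. A second annotated DHCR7 start has no CCAAT box in the 200 bases before it, and the window shown is that of the start with 2, 1 in each orientation, in capitals:
DHCR7, chr11:71448394-71448593 (GRCh38.p14, minus strand): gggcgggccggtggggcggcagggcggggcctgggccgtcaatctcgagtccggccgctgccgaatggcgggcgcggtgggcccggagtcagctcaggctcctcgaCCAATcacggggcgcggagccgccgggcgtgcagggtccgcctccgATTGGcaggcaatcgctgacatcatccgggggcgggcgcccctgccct

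Among the genes of lipoprotein uptake and sterol transport, VLDLR was called and the others were not. VLDLR (ENSG00000147852), a receptor for triglyceride-rich lipoproteins, had 4.64, 4.84 and 4.88 FPKM in shMETTL1 replicates 1, 2 and 3, against 2.16, 3.01 and 2.80 FPKM in shscramble replicates 1, 2 and 3. All shMETTL1 values exceeded all control values at a low level of expression. VLDLR rose to 1.86 times the shscramble level by edgeR (log2 fold change 0.89, SE 0.22, adjusted p = 0.0216; adjusted p = 0.261 by limma). STARD4, which carries sterol between membranes and is a known SREBF2 target, lay the other way, with 7.50, 7.18 and 7.02 FPKM in the shMETTL1 libraries, against 10.2, 11.0 and 8.99 FPKM in the shscramble libraries. The groups of STARD4 did not overlap, with lower values in shMETTL1, and neither test called it (log2 fold change -0.58, SE 0.18, adjusted p = 0.0731 by edgeR; adjusted p = 0.359 by limma). MYLIP, a ubiquitin ligase that marks lipoprotein receptors for degradation and is induced by the sterol sensor LXR, averaged 7.08 ± 0.883 FPKM in shMETTL1 and 6.35 ± 0.812 FPKM in shscramble. ABCA1, the cholesterol exporter under LXR, was between 0 and 0.05 FPKM in every library and stayed below the filter of 0.5.

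The SREBP factors and their regulators held no called gene, where 2.68% of all genes rose and 3.65% fell by edgeR. The 2 transcription factor genes had fold changes of opposite sign. SREBF1 (ENSG00000072310), whose product drives fatty acid and some sterol genes, had 119, 111 and 135 FPKM in shMETTL1 replicates 1, 2 and 3, against 146, 183 and 176 FPKM in shscramble replicates 1, 2 and 3. The groups did not overlap by FPKM (log2 fold change -0.47, SE 0.15, adjusted p = 0.216 by limma). The estimated counts of SREBF1 were 594, 661 and 611 in the shMETTL1 libraries, against 511, 880.1 and 625 in the shscramble libraries, and these did overlap (log2 fold change -0.15, SE 0.14, adjusted p = 0.568 by edgeR). Without shscramble replicate 2 the count-based fold change was 0.036, and the FPKM-based one was -0.40. The estimated count per FPKM of SREBF1 averaged 5.15 in shMETTL1 and 3.95 in shscramble, so the 2 scales do not give the same picture for this gene.

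SREBF2 (ENSG00000198911), whose product drives the sterol genes, had 68.0, 76.0 and 83.9 FPKM in the shMETTL1 libraries, against 56.0, 70.2 and 61.0 FPKM in the shscramble libraries. A single control, shscramble replicate 2, reached into the shMETTL1 range. SREBF2 was not called with all libraries by edgeR (log2 fold change 0.35, SE 0.13, adjusted p = 0.130) or by limma (log2 fold change 0.28, adjusted p = 0.425). Without that library it rose by edgeR (log2 fold change 0.46, adjusted p = 0.0099) but was not called by limma (log2 fold change 0.37, adjusted p = 0.195). SREBF2 is known to act on its own promoter. Of the member promoters searched, its RefSeq promoter was the 1 with the classical sterol element core, TCACCCCAC, in capitals beside an inverted CCAAT box:
SREBF2, chr22:41832905-41833104 (GRCh38.p14, plus strand): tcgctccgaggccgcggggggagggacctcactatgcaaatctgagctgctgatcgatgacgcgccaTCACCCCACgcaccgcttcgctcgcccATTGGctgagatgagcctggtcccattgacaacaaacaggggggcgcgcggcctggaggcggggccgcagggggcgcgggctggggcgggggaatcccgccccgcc

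SCAP, the escort protein gene, had 15.2, 23.6 and 19.2 FPKM in the shMETTL1 libraries, against 14.2, 25.0 and 16.2 FPKM in the shscramble libraries. Shscramble replicate 2 was the highest of all 6 libraries, and the other 2 controls lay at the low end together with shMETTL1 replicate 1. SCAP was not called by edgeR (log2 fold change 0.35, SE 0.20, adjusted p = 0.320) or by limma (log2 fold change 0.084, SE 0.25, adjusted p = 0.907). Without shscramble replicate 2, SCAP rose by edgeR (log2 fold change 0.68, adjusted p = 0.00589) but not by limma (log2 fold change 0.32, adjusted p = 0.453). This call therefore rests on leaving out that 1 control and on the count scale. INSIG1, which retains SCAP in the endoplasmic reticulum and is itself an SREBP target, had 56.1, 43.2 and 57.9 FPKM in the shMETTL1 libraries, against 30.8, 50.5 and 43.2 FPKM in the shscramble libraries. Shscramble replicate 2 again lay within the shMETTL1 range (log2 fold change 0.23, SE 0.13, adjusted p = 0.330 by edgeR). Without it the adjusted p was 0.0522 by edgeR and 0.208 by limma. INSIG2, the second retention factor, had 23.0, 26.7 and 18.8 FPKM in the shMETTL1 libraries, against 24.2, 14.0 and 19.6 FPKM in the shscramble libraries, with its lowest value in shscramble replicate 2 and no call (log2 fold change 0.20, SE 0.19, adjusted p = 0.582 by edgeR). The plot of these 5 genes by FPKM and by count shows the overlap of the groups and the difference of scale for SREBF1.

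**Figure D3:**
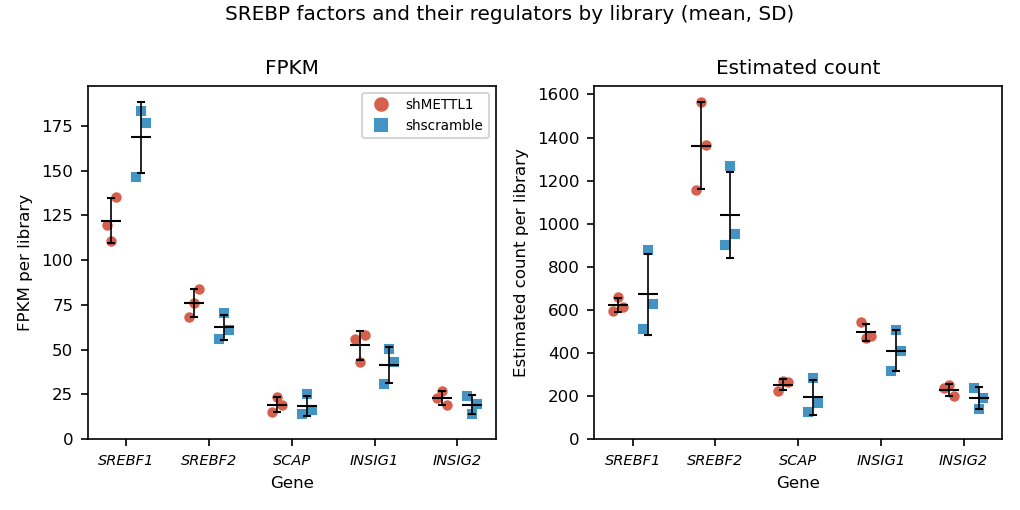
FPKM (left) and estimated count (right) of the 2 SREBP genes and their 3 regulators in each library, with shMETTL1 as circles and shscramble as squares, and the mean with SD in black. SREBF1 separates by FPKM, 111 to 135 in shMETTL1 and 146 to 183 in shscramble, but not by count.

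None of the fatty acid synthesis genes rose. Of 8 genes measured, 0 were called by edgeR, limma or DESeq2 with all libraries. Since 2.68% of all genes rose and 3.65% fell by edgeR, and limma called 0.123%, 0 of 8 does not set the group apart. The median log2 fold change was -0.0038 by limma and -0.05 by edgeR. Before adjustment, p was under 0.05 by both tests for 2 of them, ELOVL5 and ELOVL6, which were lower. Of all genes, 6.8% were so by limma and 12.1% by edgeR. FASN, the synthase that makes palmitate, averaged 94.6 ± 16.2 FPKM in shMETTL1 and 91.9 ± 29.5 FPKM in shscramble, and its highest value, 126 FPKM, was in shscramble replicate 2. ACLY and ACSS2, which supply cytosolic acetyl-CoA from citrate and from acetate, had log2 fold changes of 0.20 by limma and -0.012 by edgeR and of -0.055 by limma and -0.052 by edgeR. SCD, the desaturase that makes oleate, averaged 185 ± 12.8 FPKM in shMETTL1 and 185 ± 13.1 FPKM in shscramble, a difference of -0.00071 (SE 0.13) in log2 FPKM by limma. The promoter of SCD is shown as that of an abundant member with almost equal means in the 2 groups, with the 1 CCAAT box of this window in capitals:
SCD, chr10:100347033-100347232 (GRCh38.p14, plus strand): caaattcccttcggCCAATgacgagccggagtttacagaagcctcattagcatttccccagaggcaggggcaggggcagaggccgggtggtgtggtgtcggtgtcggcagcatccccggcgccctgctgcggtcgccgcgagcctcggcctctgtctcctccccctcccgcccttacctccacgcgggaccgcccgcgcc

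The 2 elongase genes had lower means in shMETTL1. ELOVL5, which lengthens polyunsaturated fatty acids, had 74.0, 70.0 and 76.6 FPKM in the shMETTL1 libraries, against 102, 81.0 and 98.0 FPKM in the shscramble libraries. The groups did not overlap, with shscramble replicate 2 the control nearest to shMETTL1. ELOVL5 was not called by edgeR (log2 fold change -0.40, SE 0.13, adjusted p = 0.0756) or by limma (adjusted p = 0.332). Without shscramble replicate 2, ELOVL5 fell by edgeR (log2 fold change -0.53, adjusted p = 0.00144) but was not called by limma (adjusted p = 0.101). ELOVL6, which lengthens palmitate to stearate, had 29.3, 23.3 and 27.8 FPKM in the shMETTL1 libraries, against 49.7, 27.0 and 55.0 FPKM in the shscramble libraries. Shscramble replicates 1 and 3 stood well above the rest, and shscramble replicate 2 lay within the shMETTL1 range. ELOVL6 was not called with all libraries (log2 fold change -0.36, SE 0.15, adjusted p = 0.178 by edgeR; adjusted p = 0.319 by limma), and without that library it fell by both edgeR (-0.54, adjusted p = 0.00402) and limma (-0.96, adjusted p = 0.043). FADS1 and FADS2, the desaturases of polyunsaturated fatty acids, had log2 fold changes of -0.0068 by limma and -0.047 by edgeR and of 0.15 by limma and 0.042 by edgeR. FADS2 was the most abundant member per length, at 291 ± 1.08 FPKM in shMETTL1 and 269.6 ± 81.3 FPKM in shscramble, and its control SD was set by shscramble replicate 2 at 361 FPKM.

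Averaged over the genes of each group, the sterol arms separated the libraries by hairpin and the fatty acid genes did not. Relative to the mean of the 6 libraries, the 18 sterol synthesis genes averaged 0.16, 0.18 and 0.43 on the log2(FPKM + 0.5) scale in shMETTL1 replicates 1, 2 and 3, against -0.42, -0.17 and -0.17 in shscramble replicates 1, 2 and 3. The 8 fatty acid genes averaged -0.03, -0.13 and 0.043 in shMETTL1, against -0.035, 0.072 and 0.08 in shscramble, and these overlapped. The 5 regulators averaged -0.02, 0.081 and 0.093 in shMETTL1, against -0.19, 0.082 and -0.041 in shscramble, also with overlap. Whether the sterol and fatty acid groups differ from each other was not tested, since members of a list are not replicates.

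**Figure D4:**
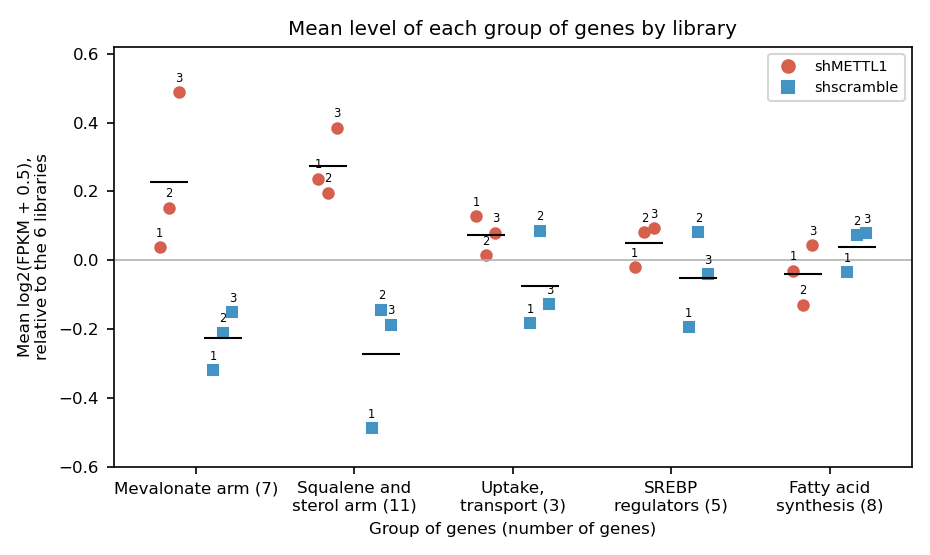
Mean log2(FPKM + 0.5) of the genes in each group, relative to the mean of the 6 libraries, for each shMETTL1 library (circles) and shscramble library (squares), numbered by replicate, with the group mean as a line. The squares of shscramble replicate 2 lie within or above the shMETTL1 circles for uptake, regulators and fatty acid genes, and below them for both sterol arms.

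The calls depended on which library was left out. HMGCS1, MSMO1 and SQLE rose by edgeR whichever of the 6 libraries was left out, with adjusted p-values up to 0.00953, 0.00413 and 0.0415. Leaving out any single library other than shscramble replicate 2 gave 4 called members, namely these 3 and LSS without shMETTL1 replicate 1 or SC5D in the other cases. DHCR7, TM7SF2 and VLDLR lost their edgeR call each of those times, with adjusted p-values up to 0.128, 0.178 and 0.0964 and log2 fold changes of at least 0.60, 0.50 and 0.82. Leaving out shscramble replicate 2 gave 14 called members, 12 of which rose and 2 of which fell, and 4 by limma, namely HMGCS1, MSMO1 and DHCR7 higher and ELOVL6 lower. In that setting the calls over all genes also increased, by edgeR from 712 of 11248 genes to 1989 of 11371. By limma they increased from 15 of 12156 genes to 189 of 12135.

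RefSeq promoters, from 250 bases before to 50 after an annotated start in GRCh38.p14, were found for 31 of the 35 members. None was found for ACAT2 and FASN. The chromosome that holds FDFT1 and SQLE was left out of the search, for members and background alike. The CCAAT box, bound by NF-Y, a usual partner of SREBPs, was present on either strand in 22 of 31 members (71.0%), against 34.6% of 35116 promoters and 43.9% of the 9710 tested genes with a promoter. It was present in 13 of 15 sterol synthesis genes and 5 of 7 fatty acid genes, and in 6 of the 7 matched genes that rose by edgeR. The GC box GGGCGG, bound by SP1, was present in 29 of 31 members (93.5%), against 77.7% of tested genes. The sterol element core TCACCCCAC was found in 1 of 31 members (3.23%), SREBF2, against 0.546% of tested genes. The form TCACNCCAC, which leaves 1 base free and so includes every TCACCCCAC, was found in the same 1 member, against 1.45% of tested genes. These matches are descriptions of letters in the window and were not tested, and a gene with several starts was counted once if any of its promoters matched.

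Other genes of the pathway, 35 in 4 lists, were all tested. By edgeR 0 rose and 2 fell, ERLIN2 and ACSL3, against 2.68% of all genes that rose and 3.65% that fell. Before adjustment edgeR gave p under 0.05 for 5 that were higher and 4 that were lower, shares near the 10.7% and 12.1% of all genes. By limma 0 were called, as were only 0.123% of all genes. Before adjustment limma gave p under 0.05 for 4 that were higher and 3 that were lower, against 7.37% and 6.8% of all genes. Their median log2 fold change was 0.17 by limma and 0.069 by edgeR. ERLIN2, an endoplasmic reticulum protein that helps to degrade proteins of that membrane, had 25.0, 26.6 and 37.7 FPKM in the shMETTL1 libraries, against 51.2, 41.4 and 36.1 FPKM in the shscramble libraries, and the groups overlapped by FPKM (log2 fold change -0.42, SE 0.12, adjusted p = 0.0381 by edgeR). ACSL3, which activates long-chain fatty acids, had 48.9, 44.8 and 45.7 FPKM in the shMETTL1 libraries, against 54.9, 60.0 and 54.7 FPKM in the shscramble libraries, with no overlap (log2 fold change -0.45, SE 0.12, adjusted p = 0.0325 by edgeR). The 7 genes of SREBP cleavage and INSIG turnover had a median of 0.12, the 12 of sterol storage, trafficking and LXR 0.15, the 4 of the isoprenoid branch 0.13, and the 12 of fatty acid activation and glycerolipid synthesis 0.21, all by limma.

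The 2 scales gave similar fold changes for most members, but differed by over 0.2 on the log2 scale in 8 of 34. The estimated count per FPKM did not overlap between the groups for 3 members, against 10.3% of all genes with both values. For ELOVL6 it averaged 14.5 in shMETTL1 and 11.4 in shscramble, for SCAP 13.4 in shMETTL1 and 10.3 in shscramble, and for ACLY 15.0 in shMETTL1 and 16.7 in shscramble. For LSS it averaged 7.28 in shMETTL1 and 9.95 in shscramble, with overlap, which goes with the larger FPKM fold change of that gene. Reads of some members may also be shared, since the strand setting of the counting is not given in the sources used here. By the GENCODE annotation, ACAT2 overlaps TCP1 on the opposite strand over 9.23% of its exonic bases, SREBF1 overlaps RAI1 over 6.92%, and FADS1 and FADS2 overlap each other over 4.79% and 4.44%. CYP51A1 shares 79.3% of its exonic bases with a second protein-coding model on the same strand, and pseudogenes are named after FDPS, CYP51A1, HSD17B7, SCD and FADS2, so values of these genes are uncertain to that extent.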

How the data were processed

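Per the labels, total RNA of LNCaP-AI cells was sequenced in 3 shMETTL1 and 3 shscramble libraries, and the build hg19 and the tools HISAT2 2.0.4, cutadapt 1.9.3, Cuffdiff and Cufflinks are listed in the submitters' processing notes. For each library the authors deposited 1 FPKM value, relative to transcript length and library depth, and 1 estimated count per gene. These deposited estimated counts are largely not whole numbers (1.8% to 2.51% of values above 0 are whole within 0.001) and may have been scaled, so no counting interval was computed from them. Gene identifiers were paired with symbols for 19434 of 20308 genes.

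FPKM values were tested with limma 3.58.1 in R 4.3.3 (intensity trend, robust prior) on log2(FPKM + 0.5), which understates changes of low genes, for the 12156 genes whose mean FPKM was 0.5 or more. Estimated counts were rounded and tested with the edgeR 4.0.16 quasi-likelihood test (TMM scaling, default filter, 11248 genes), with DESeq2 1.42.0 as an alternative. Tests were two-sided, without pairing, with Benjamini-Hochberg adjustment over all genes tested. They were also run on simulated counts with the same setting of spread for every gene, FPKM in fixed proportion to count and no outlying library. Those settings differ from the data, so that run does not show how the tests behave here. The alternatives were other pseudocounts, filters and scalings, a replicate block and leaving out each library.

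The members and lists were chosen with earlier results of these data known. Values in every library are given for members called by either test or with an unadjusted p under 0.05 by limma, for the SREBP factors and regulators, for METTL1 and for STARD4, which was added after its values were seen, and of the other pathway genes those called are named. Promoter sequences are from RefSeq (GRCh38.p14), and no coordinates were converted from hg19.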

Additional observations from a re-analysis of the deposited data

How the results depend on the processing

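Pseudocounts of 0.1 and 1, a filter at a mean FPKM of 1 and median-ratio scaling kept every member's limma direction and gave 0 called members, and size factors of the RLE type gave the same 8 edgeR calls. Scalings moved the median of all genes by less than 0.1 on the log2 scale. DESeq2 called 9 members, adding FDFT1, and 774 genes in all, against 712 by edgeR. Leaving out the edgeR filter gave 10 called members, adding FDFT1 and ELOVL5. Without a filter, limma called 4 genes rather than 15, and edgeR 1094 rather than 712.

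Replicate numbers did not pair the libraries: deviations from the group means of same-numbered libraries correlated at 0.0024, 0.053 and -0.024. With the replicate number as a block, limma called 6 genes and 0 members. EdgeR with this block called 1015 genes rather than 712, and 10 members. It added FDFT1 (adjusted p = 0.0311) and ELOVL5 (adjusted p = 0.0432) and changed no other member call.

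With 1 library left out, limma called 3 to 189 genes and 0 to 4 members, and edgeR 270 to 1989 genes and 4 to 14 members, the highest each time without shscramble replicate 2. The median of the regulators ranged from 0.14 to 0.32. Limma log2 fold changes that changed sign were those of FDPS (-0.19 to 0.012), CYP51A1 (-0.086 to 0.068), HSD17B7 (-0.23 to 0.031), SCAP (-0.080 to 0.32), ACSS2 (-0.22 to 0.076), FASN (-0.082 to 0.32), SCD (-0.050 to 0.058), FADS1 (-0.11 to 0.057) and FADS2 (-0.027 to 0.38). By edgeR they were those of IDI1 (-0.071 to 0.30), CYP51A1 (-0.15 to 0.018), HSD17B7 (-0.27 to 0.019), MYLIP (-0.030 to 0.13), SREBF1 (-0.28 to 0.036), INSIG2 (-0.018 to 0.44), ACLY (-0.10 to 0.069), ACSS2 (-0.21 to 0.11), FASN (-0.21 to 0.14), FADS1 (-0.12 to 0.030) and FADS2 (-0.067 to 0.22). None of these was called with all libraries, and the cause was not tested.

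The number of reads behind each library is not known from these tables, so counting error cannot be set apart from the other spread between libraries. Members at low levels, such as MVD and VLDLR, rest on estimated counts of 18.7 to 59.6 and 36.4 to 89.8 per library.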
